A study of Botryllus schlosseri with 42 samples.

Results

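This account describes 5 contigs, assembled stretches of expressed sequence, of the colonial ascidian Botryllus schlosseri: CAP3_round1_contig_3261 (c3261 below), CAP3_round1_contig_7081 (c7081), Bot_rep_c47465 (c47465), Bot_rep_c50316 (c50316) and Bot_rep_c52197 (c52197). They were taken from 50106 contigs because their best match in Ciona intestinalis, in the study's annotation, is the uncharacterized protein LOC100177400. All 5 were found in each of the 7 deposited tables. The annotation gives them no named human homolog. Another contig, CAP3_round1_contig_5534, has the same best match and is named vitellogenin in the study, and it is used for comparison only. The annotation was read from parts of the study's sheets comparing fertile and infertile colonies, which list 4967 of the contigs. Further contigs may have the same match. The members were chosen with this comparison known, so the difference between these groups is given as a description, with no test.

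Whole-colony RNA was sequenced from 42 libraries. At each of 7 stages of blastogenesis, named A1 through D, there were 3 fertile and 3 infertile libraries. The fertile group, which the labels call hermaphrodite, held the genotypes SB801 and SB841 and a mix of genotypes. The infertile group held SB802d, SB-BB-001 and a mix of genotypes. Per the study's methods the infertile mix included SB841, so the groups share this genotype. The colonies were raised in the laboratory. A mix pools genotypes, and the gonads were not dissected.

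Botryllus replaces all the zooids of a colony in a repeated cycle of budding, and in the last stage, takeover, the old zooids are resorbed. Oocytes and testes grow in the buds and zooids along this cycle, and growing oocytes take up yolk. Vitellogenins are large secreted lipid-carrying proteins that egg-laying animals store in the oocyte as yolk. What LOC100177400 does is not given in the annotation. Contigs with 1 best match may be pieces of 1 transcript or come from several genes, which the tables do not tell, and levels are not compared per length since contig lengths were not used here.

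The deposited tables give, for each stage, the mean normalized count of each group. The counts of the 3 libraries behind a mean were recovered from its digits. Within a group and stage they are called library 1, 2 and 3, in falling order of size factor. These numbers were matched to no genotype and are not shared between stages. Library values were found in 32 of the 35 combinations of contig and stage in fertile colonies and in all 35 in infertile colonies. The exceptions are c3261 at B1, B2 and C1, where 2, 3 and 9 sets of counts give the deposited fertile mean. A library held between 4616590 and 15859462 read pairs on contigs with 1 solution.

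Library 3 of the fertile A2 group stood apart. All 5 members were lowest in it, between 66.0 and 90.0 times below the mean of the other libraries of that group. So were 5 of 5 oocyte and follicle contigs (ldlr, zp-1, tll1, p-selectin and hsd17b8), by 1.77 to 12.0 times, and 7 of 7 testis contigs (tsk-1, tsk-2, tsk-6, otoancorin, tetraspanin-8, odf3l2 and fsip2), by 5.77 to 119 times. The summed count of the testis contigs was 1364 in this library, against 14359 and 8906 in the other fertile A2 libraries. Some infertile libraries stood apart the other way. Library 1 of infertile B2, C1 and C2 held testis sums of 1928, 3546 and 4067, against 67.7 to 446 in the other 18 infertile libraries. The study reported no in situ hybridization for tsk-6, odf3l2 and fsip2, whose testis role rests on their homologs. In situ hybridization in the study also placed tetraspanin-8 and tsk-2 in oocytes, so the testis list is not specific to the testis. Without these contigs library 1 of infertile B2, C1 and C2 held sums of 1855 to 3920, against 67.2 to 437 in the other 18. The oocyte and follicle list is not specific either. The study also placed p-selectin in the siphons and zp-1 along the endostyle, in infertile colonies as well, and ldlr in secondary bud tissue. It placed vitellogenin in follicle cells of the testes as well as on maturing eggs.

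All 5 contigs were more abundant in fertile than in infertile colonies at every stage. The ratio of the group means was between 37.5 (c3261) and 96.1 (c52197) at A1, and its median over the 35 combinations was 379.7. For c3261, c7081, c47465 and c50316 it was lowest at A1 with each library left out in turn, where libraries were known. For c52197 the order of A1 and C2 turned when fertile or infertile A1 library 3 was left out (125 and 137 at A1, against 106 at C2), or infertile C2 library 2 or 3 (78.2 and 70.9 at C2). The stage with the highest ratio turned on single libraries for c7081, c47465 and c50316. Without infertile C1 library 1, the C1 ratio was 1545 for c7081, 1254 for c47465 and 2299 for c50316, against highest ratios over all libraries of 1210.0 at B1, 1226 at B1 and 688 at B2. In each of the 32 combinations with library values, all 3 fertile libraries lay above all 3 infertile ones. Among all contigs with at least 10 normalized counts on average, this order held, in stage order A1 to D, for 7.75%, 6.93%, 8.04%, 4.91%, 4.39%, 7.21% and 10.9%. Since the contigs were chosen on this contrast, nothing is read from the count. Bulk RNA cannot tell fewer cells of a type from less RNA per cell.

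**Figure D1:**
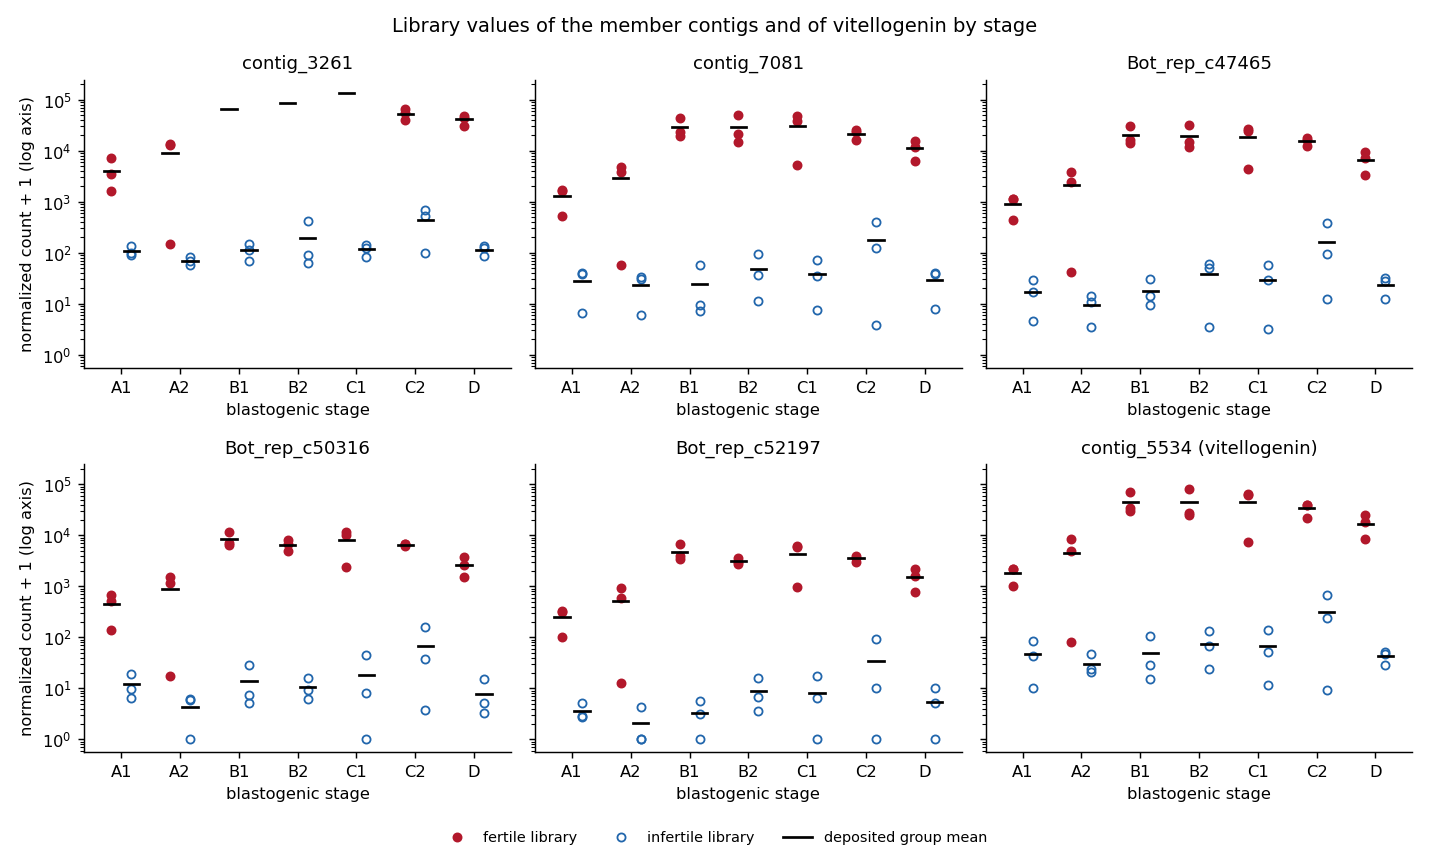
Normalized count + 1 (log axis) of each member contig and of vitellogenin over the stages, with filled red points for fertile libraries, open blue points for infertile libraries (3 each) and black bars for deposited group means. The fertile points lie above the infertile points at every stage, the low fertile point at A2 is library 3, and c3261 has only the mean for fertile B1, B2 and C1.

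The most abundant member by count was c3261. It had 3538, 7171 and 1596 normalized counts in fertile A1 libraries, against 138, 91.3 and 98.7 in infertile A1 libraries. At A2 it had 13211, 13374 and 148 in fertile libraries, against 56.4, 81.2 and 67.1 in infertile libraries. The groups did not overlap, but fertile library 3 of A2 was only 1.82 times the highest infertile library. Without that library the A2 ratio of means was 195 in place of 131.

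The deposited fertile means of c3261 were 67043 at B1, 85457 at B2 and 136992 at C1, against infertile means of 111, 192 and 117. In every set of counts that gives these fertile means, the lowest library is at 2110.3 or more, above the highest infertile library of these stages at 423. The spread of the fertile libraries at these stages is not known.

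At C2, c3261 had 66994, 39453 and 53920.5 in fertile libraries, against 705, 524 and 97.8 in infertile libraries. At D it had 30992, 48763 and 44640.0 in fertile libraries, against 132, 123 and 87.1 in infertile libraries. By count, not corrected for length, it ranked between 58 and 90 among the 50106 contigs in fertile colonies at the stages B1 to D. The 5 members together took between 0.0175% (A1) and 0.399% (B2) of the summed fertile mean. In infertile colonies they took between 0.000306% (A2) and 0.00249% (C2).

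The next member by count, c7081, had 1730.1, 1653 and 525 in fertile A1 libraries, against 37.1, 5.48 and 39.1 in infertile A1 libraries. At A2 it had 3895, 4882 and 57.7 in fertile libraries, against 29.9, 32.2 and 4.97 in infertile libraries. At B1 it had 43732, 23823 and 19493 in fertile libraries, against 57.1, 6.21 and 8.66 in infertile libraries. The ratio of means at B1 was 1210.0. It was between 883 and 3903 with 1 library left out, and it was highest without infertile B1 library 1.

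At B2, c7081 had 51044, 15183 and 21006 in fertile libraries, against 34.9, 94.5 and 10.3 in infertile libraries. At C1 it had 5269, 38419.6 and 48792 in fertile libraries, against 70.0, 33.4 and 6.46 in infertile libraries. Fertile library 1 of C1 was the lowest of its group for all 4 members with values there, between 4.56 and 8.28 times below the mean of the other libraries, and for 4 of 5 oocyte and follicle contigs and 2 of 7 testis contigs. In fertile C2 libraries c7081 had 25164, 16448 and 23373, against 399, 124 and 2.79 in infertile C2 libraries. In fertile D libraries it had 6416, 15264 and 11628, against 37.5, 39.0 and 6.87 in infertile D libraries. In no stage did the groups meet.

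The contigs c47465 and c50316 followed the same course at lower counts. The mean of c47465 in fertile libraries was 897 ± 399 at A1, 2129 ± 1931 at A2, 20673 ± 9204 at B1 and 6626 ± 3042 at D (SD, n = 3). In infertile libraries it was 16.1 ± 12.6, 8.66 ± 5.64, 16.9 ± 11.03 and 22.9 ± 10.04 at those stages. Its fertile means were lowest at A1 and A2, and its infertile means were under the lowest fertile library at each of these stages. The mean of c50316 in fertile libraries was 441 ± 272 at A1, 899 ± 781 at A2, 8324 ± 2863 at B1 and 2621 ± 1068 at D. In infertile libraries it was 10.9 ± 6.76, 3.35 ± 2.90, 12.8 ± 13.01 and 6.90 ± 6.47. At C2 the fertile libraries of c50316 were close together, at 6086, 6701 and 6707.

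The least abundant member was c52197. It had 329, 313 and 98.4 in fertile A1 libraries, against 1.77, 1.83 and 4.11 in infertile A1 libraries. At B1 it had 6770.2, 3478 and 3919 in fertile libraries, against 4.63, 0 and 2.16 in infertile libraries. Of the 21 infertile libraries, 6 had no read of c52197 and 15 had 3 read pairs or fewer, the floor of detection used here. Its ratios therefore rest on few infertile reads.

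At B1, on 7380 fertile and 4 infertile read pairs, the ratio of c52197 was 2086, with a 95% interval from 814 to 7658. Without infertile B1 library 1 it was 4364, and with any other library left out it was at least 1391. At A2, on 797 fertile and 2 infertile read pairs, it was 454 (125 to 3752). Both infertile read pairs were in library 2, without which there is no ratio. With a pseudocount of 1 the A2 ratio was 241, and without fertile A2 library 3 it was 675. At A1, on 384 fertile and 4 infertile read pairs, it was 96.1 (37.2 to 355). For c50316 at A2, where the infertile libraries held 3, 3 and 0 read pairs, the ratio was 268 (123 to 732), and between 178 and 400 with 1 library left out, highest without fertile library 3. These exact binomial intervals cover counting error only.

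The members shared their course over the fertile cycle. The summed count of c7081, c47465, c50316 and c52197 in fertile libraries was 2887 ± 1468, 6484 ± 5704, 62736 ± 26534, 58529.8 ± 30596, 62009.8 ± 42717, 47405 ± 7538 and 21878 ± 9275 (SD, n = 3) in stage order A1 to D. Each stage was normalized on its own, so these levels stand across separately scaled tables. The means of B1, B2 and C1 differed by less than the SD of any of them, and A1 and A2 differed by less than the SD at A2. Without A2 library 3 the A2 mean was 9662 ± 2112 (SD, n = 2). The 3 D libraries, at 12103, 30555 and 22976.5, all lay below the 3 C2 libraries, at 51378.5, 38711 and 52125. The fertile mean at B1 was between 7.52 (c3261) and 9.85 (c7081) times that at A2, or between 5.04 and 6.61 times without A2 library 3. The mean at C1 was between 2.78 and 3.30 times that at D.

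**Figure D2:**
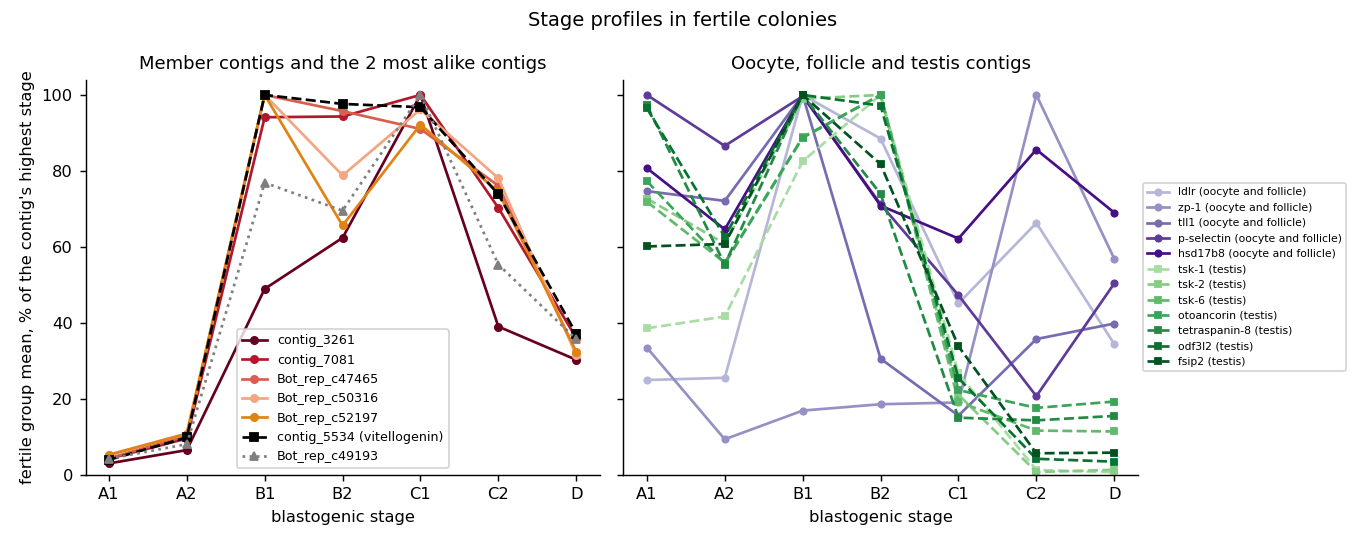
Deposited fertile group means by stage, as a percentage of each contig's highest stage. The left panel shows the 5 members, vitellogenin and Bot_rep_c49193, all lowest at A1, and the right panel shows 5 oocyte and follicle contigs (solid lines) and 7 testis contigs (dashed lines), the testis contigs all far lower at C2 and D than at B2.

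Whether levels differed between stages was tested within fertile colonies with limma on log2(normalized count + 1), after the 21 libraries were scaled together. At a false discovery rate of 10% (Benjamini-Hochberg), 903 of 38453 contigs differed over the stages, or 2.35%. Of the 4 members with values in all libraries, 0 passed. Their adjusted p-values in limma were between 0.109 (c47465) and 0.129 (c52197), and their unadjusted p-values between 0.00274 and 0.00385. An unadjusted p under 0.05 was found for 4 of 4 members and for 3528 contigs. The contig c3261 did not enter this test. The genotypes named in the labels recur at all 7 stages, and the test treats the libraries as independent.

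This outcome turned on the A2 libraries. Without fertile A2 library 3, 4 of 4 members passed, with limma adjusted p-values between 0.00373 (c50316) and 0.0140 (c7081), as did 3.37% of all contigs. Without A2 library 2, 4 of 4 passed (2.06% of contigs), and without A2 library 1, 3 of 4 (2.22%). With 1 library of any other stage left out, 0 passed. With all libraries, 4 of 4 also passed with a pseudocount of 10 (2.87% of contigs), or with the size factors of the deposited tables (2.94%).

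Between neighbouring stages, the largest difference was that of B1 from A2. B1 minus A2 was between 4.14 (SE 1.16, c52197) and 4.29 (SE 1.25, c7081) on the log2 scale. Their limma p-values were between 0.00255 and 0.00345 unadjusted and 1 after adjustment over all contigs. In this comparison 0 contigs passed in either direction and 387 had an unadjusted p under 0.05. Without A2 library 3, the difference was divided over both steps. A2 minus A1 was then between 2.04 (SE 0.72, c52197) and 2.19 (SE 0.83, c7081), against 0.04 to 0.13 with it, and B1 minus A2 between 2.18 and 2.24. Neither step passed after adjustment.

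The differences B2 minus B1, C1 minus B2 and C2 minus C1 were between -0.35 and 0.13 on the log2 scale, with SEs from 1.16 to 1.25. D minus C2 was between -1.21 (SE 1.20, c50316) and -0.84 (SE 1.25, c7081). Without A2 library 3 the estimate for c50316 was -1.21 with an SE of 0.61 and an unadjusted limma p of 0.0653. No member was called in any of these steps. Among all contigs, 0.0052% were called higher at C2 than at C1, 0.0884% higher at D than at C2 and 0.0858% lower at D than at C2.

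**Figure D3:**
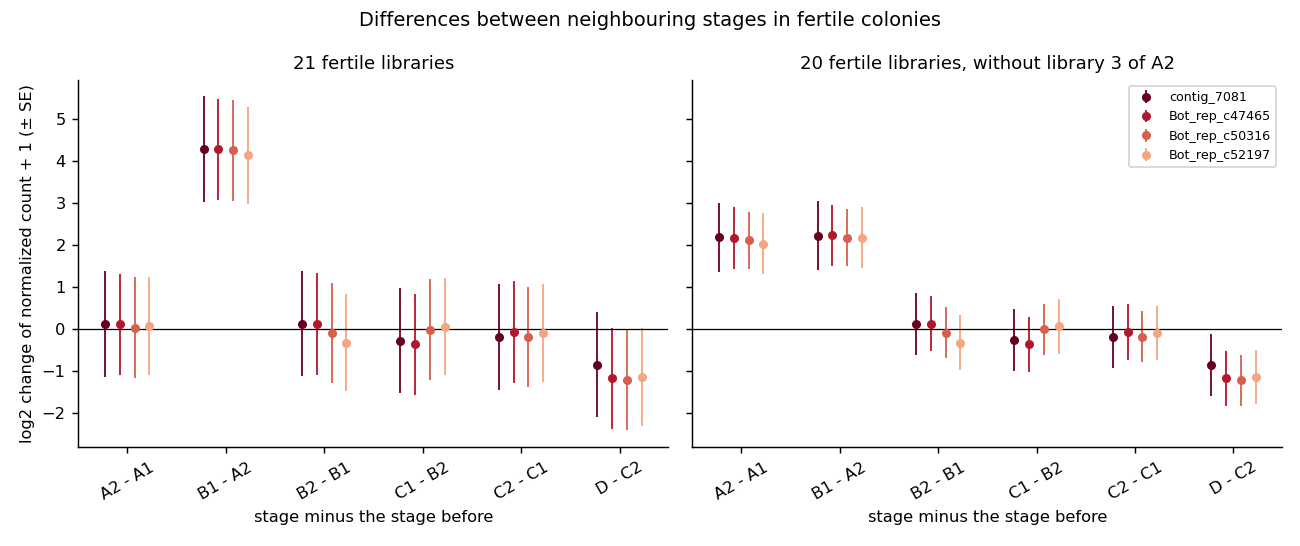
Differences between neighbouring stages in fertile colonies on the log2 scale (points, with bars for 1 SE) for the 4 members with values in all libraries. In the left panel, with 21 libraries, B1 minus A2 lies between 4.14 and 4.29, and in the right panel, without library 3 of A2, A2 minus A1 and B1 minus A2 lie between 2.04 and 2.24.

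For c3261, a fit of the 12 fertile libraries of A1, A2, C2 and D was added after the data were seen. C2 minus A2 was 3.76 (SE 1.45) on the log2 scale, with a limma adjusted p of 0.527 and an unadjusted p of 0.0268. In the same fit the other 4 members gave differences between 3.83 and 4.02, with adjusted p-values from 0.450 to 0.466. Of all contigs, 1.03% differed over these stages, 0.125% were called higher and 0.14% lower at C2 than at A2, and 0 of 5 members. D minus C2 was -0.19 (SE 1.45) for c3261, against -1.23 to -0.86 for the other members. Here 0.0859% of contigs were called higher and 0.107% lower, again with 0 of 5 members. Without A2 library 3, in 11 libraries, C2 minus A2 was 1.61 (SE 0.55) for c3261, with a limma adjusted p of 0.372. The test over these stages then called 5 of 5 members and 3% of contigs, with an adjusted p of 0.0127 for c3261.

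In infertile colonies, 427 of 37943 contigs, or 1.13%, differed over the stages by limma at a 10% false discovery rate. Of the 4 members that passed the filter, 0 were called and 0 had an unadjusted p under 0.05, and each had an adjusted p of 1. The remaining member, c52197, averaged under 10 normalized counts and was not tested there. The deposited infertile means were highest at C2 for all 5 members, between 3.87 (c3261) and 9.61 (c50316) times those at D. Without infertile C2 library 1 these ratios were between 1.06 (c52197) and 2.88 (c50316), and c52197 was highest at B2 (7.74) in place of C2 (4.63). For c3261, D minus C2 was -1.38 (SE 0.69) on the log2 scale, with an unadjusted limma p of 0.063. In this step 0.192% of contigs were called higher and 0.0474% lower at D.

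The C2 values rested mostly on 1 library. Library 1 held 53.2% of the summed infertile C2 values of c3261 and between 75.9% (c7081) and 90.7% (c52197) of those of the others. The infertile C2 libraries had 386, 92.5 and 11.2 counts of c47465. They had 159, 37.0 and 2.79 counts of c50316, and 89.9, 9.25 and 0 of c52197. Library 1 was thus highest and library 3 lowest for all 5 members. Without library 1 the fertile C2 mean was 172 times the infertile mean for c3261 and 303 to 760.1 times for the other members, in place of 121 and of 96.4 to 123.

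The same library had the highest testis sum of all infertile libraries. There tsk-1, a homolog of testis-specific serine kinases, had 1235 counts, against 18.5 and 8.38 in infertile C2 libraries 2 and 3. Library 1 of infertile C1 was also highest of its group in 5 of 5 members and 7 of 7 testis contigs. Library 1 of infertile B2 was highest in 7 of 7 testis contigs and 1 of 5 members. The oocyte and follicle contigs were often highest there too, 4 of 5 in library 1 of infertile C1 and 4 of 5 in that of C2. In library 1 of infertile B2, 3 of 5 were highest. Infertile C2 library 2 had 263 counts summed over c7081, c47465, c50316 and c52197, above all other infertile libraries but library 1 of C2, with a testis sum of 109.

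The sum of the 5 oocyte and follicle contigs was 112 in infertile C2 library 1, and between 11.8 and 162 over all infertile libraries, against 289 to 2199 in fertile libraries. In an infertile library up to 2 of the 7 testis contigs and up to 2 of the 5 oocyte and follicle contigs were at 0. In fertile libraries none of them was at 0, and testis sums were between 962 and 23387. The part of gonad tissue in the members' infertile counts was not tested.

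**Figure D4:**
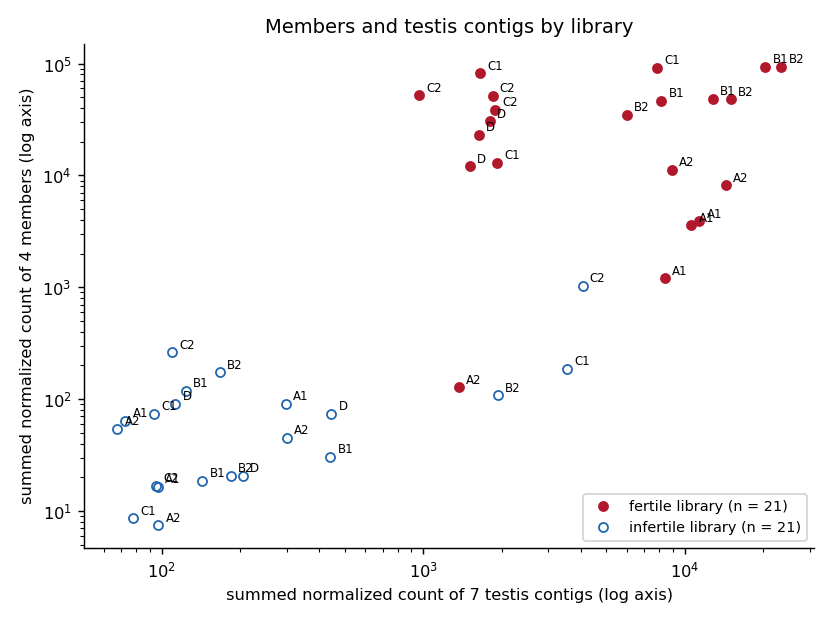
Summed normalized count of 4 members (all but c3261) against that of the 7 testis contigs, per library and both on log axes, for 21 fertile (filled red) and 21 infertile (open blue) libraries marked with their stage. The infertile libraries at testis sums of 1928, 3546 and 4067 lie right of the other infertile libraries, the fertile A2 library at 1364 lies near them, and fertile C2 and D libraries have testis sums of 962 to 1880 with member sums of 12103 to 52125.

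The 4 less abundant members kept similar proportions in fertile libraries. Of their summed read pairs, c7081 took a median of 46.0%, c47465 of 32.4%, c50316 of 12.9% and c52197 of 7.43% (n = 21 libraries). The share of c7081 was between 40.6% and 54.9%, that of c50316 between 7.41% and 18.3%, and that of c52197 between 3.19% and 9.09%. Over infertile libraries the medians were 45.3%, 33.3%, 14.1% and 4.55% in the same order, with ranges as wide as 16.7% to 75.0% for c7081. Most infertile libraries held few reads of these members, and the part of counting error in these ranges was not tested. Vitellogenin had between 0.561 and 0.865 times the read pairs of these 4 members in fertile libraries, with a median of 0.724, against a median of 0.761 in infertile libraries.

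The share of c3261 among the read pairs of all 5 members was between 47.7% and 71.9% in the 12 fertile libraries with values, with a median of 56.8%, against 40.6% to 90.5% in the 21 infertile libraries, with a median of 66.6%. In fertile A1 libraries it was 47.7% (95% exact binomial interval 46.3% to 49.2%), 66.6% (65.3% to 68.0%) and 57.1% (54.2% to 59.9%), so libraries of 1 stage differed by more than counting error. By the deposited means it was highest at fertile C1 (68.8%) and D (65.5%), and between 51.7% and 59.4% at the other fertile stages. Over pooled reads it was 57.9% in the 12 fertile libraries, which are of A1, A2, C2 and D only. It was 56.7% in the 21 infertile libraries of all stages, so the pools differ in stages. Fertile C2 library 1 alone gave 68664 of 296625 read pairs, and infertile C2 library 1 alone gave 1006 of 3359.

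In infertile libraries where the other members were nearly absent, c3261 was still counted. It had between 24 and 408 read pairs in every infertile library. Of the 21 infertile libraries, 6 had 3 read pairs or fewer of c7081, 4 of c47465, 11 of c50316 and 15 of c52197, but 0 of c3261.

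**Figure D5:**
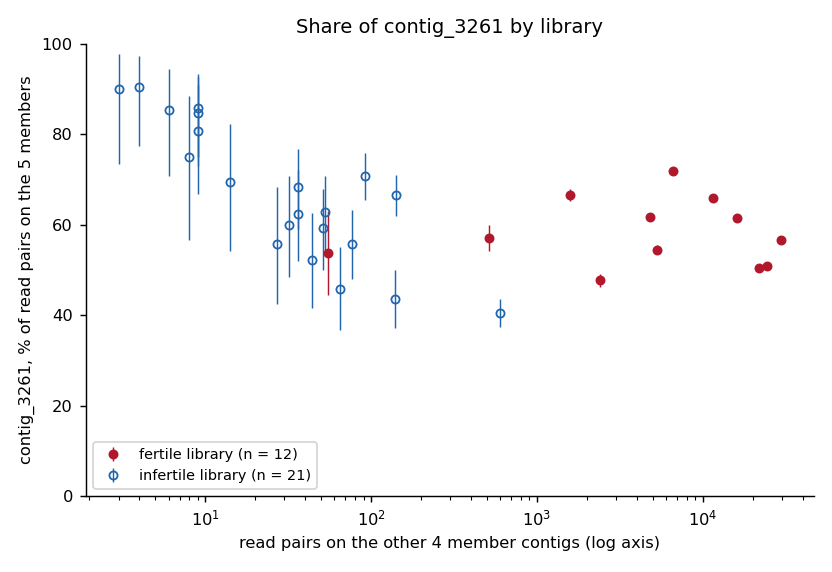
Percentage of the 5 members' read pairs that fell on c3261, against the read pairs on the other 4 members (log axis), for 12 fertile (filled red) and 21 infertile (open blue) libraries with 95% exact binomial intervals as bars. The count on the horizontal axis enters the share. The highest shares, up to 90.5%, are in infertile libraries with few reads of the other members, and the fertile libraries lie between 47.7% and 71.9%.

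Across libraries the members moved together. Over the 21 fertile libraries, Pearson's r of log2(normalized count + 1) was between 0.988 and 0.996 for pairs of the 4 less abundant members, and between 0.976 and 0.9895 for c3261 with each of them over 12 libraries. Over the 21 infertile libraries it was between 0.847 and 0.889 for those pairs and between 0.680 and 0.816 for c3261. The points share libraries and scaling and, in fertile colonies, the low A2 library, so these values are descriptions.

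The contig most alike in its fertile course was vitellogenin. Among 15320 contigs with a fertile mean of at least 100 at each stage, its log2 means over the 7 stages had the highest correlation with the average of the members, at r = 0.998. Its fertile means were 1794, 4478, 45604, 44523, 44132, 33669.7 and 16923 in stage order A1 to D, against infertile means of 45.3, 29.6, 49.2, 74.6, 65.6, 308 and 41.8. Its fertile A2 libraries had 4988, 8366 and 78.5 counts, so library 3 was low for it as well. By Spearman's correlation over the 7 stages it ranked 47.

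Next came Bot_rep_c49193, at r = 0.996, for which the annotation lists no Ciona match. Its fertile means were 129.6, 246, 2351, 2126, 3058, 1693 and 1092 in stage order A1 to D, against infertile means between 0.589 and 14.2. In fertile A2 libraries it had 359.6, 375 and 4.62 counts, and in fertile C1 libraries 365, 3280.2 and 5529. It was thus low in the same fertile A2 and C1 libraries as the members. The other contigs among the 5 most alike, Bot_c1105 (r = 0.979), CAP3_round1_contig_2471 (r = 0.976) and Bot_c6429 (r = 0.972), varied only 2.66-fold, 1.26-fold and 1.45-fold over the fertile stages.

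Vitellogenin, which the study placed on maturing eggs and in follicle cells of the testes, was kept out of the oocyte and follicle list. The 5 contigs of that list differed from the members in course. The most alike was ldlr, a homolog of receptors that take up lipoproteins, with r = 0.838. Its fertile mean was highest at B1 (1277) and varied 4.01-fold over the stages. The contig zp-1, a homolog of egg-coat proteins, had r = 0.106 and was highest at C2 (569). The steroid dehydrogenase homolog hsd17b8 had r = 0.125 and varied 1.61-fold. The metalloprotease homolog tll1 had r = -0.53 and the adhesion molecule homolog p-selectin r = -0.45. At B1 these 5 contigs had between 1.15 and 3.92 times their A2 mean, against 7.52 to 9.85 times for the members. Without A2 library 3 these ranges were 0.894 (p-selectin) to 2.72 (ldlr) and 5.04 to 6.61.

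The testis contigs differed from the members both in the step from A2 to B1 and between B2 and C2. At B1 they had between 1.59 and 1.98 times their A2 mean, against 7.52 to 9.85 times for the members. Without A2 library 3 these ranges were 1.08 to 1.33 and 5.04 to 6.61. The fertile mean at B2 was between 0.881 (c52197) and 1.60 (c3261) times that at C2 for the members, against 5.16 (tetraspanin-8) to 137 (tsk-2) times for the 7 testis contigs. Without tetraspanin-8 and tsk-2, which the study also placed in oocytes, the testis range was 5.68 (otoancorin) to 78.2 (tsk-1). The fertile mean of tsk-1 was 3522 at B2 and 45.0 at C2. Correlations of the testis contigs with the members over the 7 stages were between -0.38 and -0.07. These ratios and correlations of stage means are descriptions, with no test.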

How the data were processed

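Libraries were made from polyadenylated RNA. Per the study's methods and processing notes, the authors trimmed the first 12 bases, aligned read pairs with Bowtie 0.12.7 to assembled expressed sequence tags, counted them by contig and normalized each stage with DESeq 1.10.1. The deposited signal is a group's mean normalized count, in which a read pair counts as 2. Deposited fold changes and p-values are the authors' own comparisons and were not used.

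Library counts were recovered as the whole read pairs whose weighted sum gives the deposited mean to 15 significant digits. At least 49949 contigs per column had 1 solution and 0 had none. Of 8400 decoy means up to 10000, 2 were solved, but at fertile columns so were 3.38% of decoys between 10000 and 20000, 19.8% up to 50000 and 74.3% up to 100000. On simulated data, 19971 of 20000 fertile B1 contigs and 19934 of 20000 infertile A2 contigs had 1 solution, 100% of them right. Of 1170 simulated fertile means of B1 to D between 20000 and 60000, 1068 had 1 solution, all 1068 right.

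Stages were compared with limma 3.58.1 in R 4.3.3, on libraries scaled by the median of ratios, for contigs averaging at least 10, with Benjamini-Hochberg adjustment. On simulated fertile stages (38080 contigs) it called 91 of 100 contigs changed 4-fold, 100 of 100 changed 16-fold and 31 of 37880 unchanged. The simulation gave all contigs the same median spread and drew the libraries independently. It therefore does not give the power for contigs as variable between libraries as the members. The p-values measure the spread between these libraries. Filter, pseudocount, scaling, shared spread, threshold and single libraries were varied. The members, lists and tests were chosen with earlier results of these data known. Named contigs are the members, vitellogenin, the 5 most alike and the comparison lists.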

Additional observations from a re-analysis of the deposited data

How the results depend on the processing

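The count of 32 combinations with all fertile above all infertile libraries was 32 under upper-quartile scaling. It was also 32 in each of the 42 recounts without 1 library. Leaving out a library cannot lower this count, so nothing is read from those recounts. The 267 recomputed ratios of group means (pseudocount of 1, upper-quartile scaling, single libraries left out) lay between 23.5 and 4364. All moved by less than the spread between libraries, but that spread includes the library left out and is a wide limit. The B2 ratio of c3261, for instance, went from 444 to 1113 without infertile B2 library 2. For c3261 at B1, B2 and C1 the spread was that of infertile libraries only. The A2 ratio of c52197 without infertile library 2 does not exist and is not counted. In the stage test of fertile colonies, 0 of 4 members and 2.35% of contigs passed. With a pseudocount of 10, 4 members passed, as did 2.87% of contigs. Of the members, 4 passed with the size factors of the deposited tables, as did 2.94% of contigs. With a mean-dependent prior variance (added after the data were seen), 4 members passed, as did 1079 of 38453 contigs. With all 42 libraries sharing the spread, 1 member passed, as did 683 of 38625 contigs. Without 1 library, between 0 and 4 members passed. In the fits over all fertile stages, the members' adjusted p-values from limma for the stage test ranged from 0.00373 to 0.282. In the fit of 12 fertile libraries of A1, A2, C2 and D only, they were higher, between 0.427 (c7081) and 0.495 (c50316). Without A2 library 3, that fit gave 0.0120 (c47465) to 0.0265 (c50316). The 903 contigs called over the fertile stages became 430 at a false discovery rate of 5% and between 211 and 1295 without 1 library, lowest without a D library. The 427 called in infertile colonies became 204 at 5%, 1157 with 42 libraries, between 128 and 473 without 1 library, and 16 without library 1 of B2, C1 and C2 (added after the data were seen). No member passed in infertile colonies in any of these. Vitellogenin ranked 47 by Spearman's correlation and 1 both with a minimum level of 10 and without fertile A2 library 3 (added after the data were seen). The median share of c3261 in infertile libraries was 43.5% with at least 100 read pairs of the other members, a choice that by construction favours low shares. The cause was not tested, beyond what fewer samples or the threshold set by construction. No paired analysis was made, since the deposited tables hold group means and the recovered libraries were matched to no sample. Levels of c3261 at B1, B2 and C1 were not split into libraries, and infertile counts of c50316 and c52197 are near the limit of detection.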
